A study of Mus musculus with 18 samples.

Results

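The annexins are a family of proteins that bind phospholipid membranes when calcium rises. They were followed here across 18 kidney arrays, 1 array per mouse. The members were all probe sets (groups of oligonucleotides on the array that report 1 transcript) whose only gene symbol in the platform annotation was Anxa followed by a number. This gave 12 probe sets for 9 genes, Anxa1 to Anxa8 and Anxa10, among 12488 probe sets and 8252 genes with a probe set of a single symbol. Anxa1 had 3 probe sets, Anxa7 had 2 and each other gene had 1. Anxa9, Anxa11 and Anxa13 were not analysed here.

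The kidneys came from 3 mice labelled Aprt KO and 3 control mice at 1 month of age, and from 6 mice labelled Aprt KO and 6 control mice at 7 days. All had the strain label C57, and each KO-labelled mouse had a control littermate of the same sex, which gives 9 pairs. The submitters' design text writes the genotypes as Aprt-/- and Aprt+/+, and calls the mice newly born and adult where the labels give 7 days and 1 month. Aprt encodes the enzyme that salvages adenine, and mice without it form kidney stones of an oxidised adenine product. The values are signals, the brightness of each probe set on a linear scale. RNA was taken from whole kidney, so fewer cells of a type and less RNA per cell cannot be told apart in any difference below.

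Annexins share a conserved core that docks on negatively charged phospholipid through bound calcium, while their N-terminal tails differ and bind partner proteins. Annexin A1 is known as an anti-inflammatory protein that signals through formyl peptide receptors and limits leukocyte recruitment. Annexin A2 pairs with S100a10 at the cell surface, where the complex binds plasminogen and its activator, and in kidney epithelial cells annexin A2 has been described as binding crystals. Annexin A5 binds exposed phosphatidylserine, and several annexins take part in vesicle traffic and membrane repair.

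Of the 9 genes, 7 had an entry in the RefSeq promoter table used here, on mouse build GRCm38.p6. Anxa3 and Anxa6 had none, so neither could be shown. The 250 bases before the start of 3 of the 7 are shown, because these 3 genes have much of the account below. Capitals mark matches, on either strand, to any of 4 short motifs: the TATA box (letters TATAAA), the AP-1 motif (TGANTCA), the GC box (GGGCGG) and the CCAAT box (CCAAT). The first 2 sequences hold a TATA box, and the third holds none of the 4 motifs.
Anxa1 (chr19:20390672-20390921, minus strand): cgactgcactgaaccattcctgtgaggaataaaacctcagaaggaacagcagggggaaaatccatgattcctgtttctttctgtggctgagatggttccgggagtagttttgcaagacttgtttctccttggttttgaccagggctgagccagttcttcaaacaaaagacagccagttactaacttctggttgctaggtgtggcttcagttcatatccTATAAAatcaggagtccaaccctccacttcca
Anxa2 (chr9:69453433-69453682, plus strand): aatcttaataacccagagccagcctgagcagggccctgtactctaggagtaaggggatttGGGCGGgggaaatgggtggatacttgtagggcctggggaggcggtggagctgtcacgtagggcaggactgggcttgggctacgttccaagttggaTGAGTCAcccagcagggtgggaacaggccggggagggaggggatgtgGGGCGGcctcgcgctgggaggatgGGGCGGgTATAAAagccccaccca
Anxa5 (chr3:36475888-36476137, minus strand): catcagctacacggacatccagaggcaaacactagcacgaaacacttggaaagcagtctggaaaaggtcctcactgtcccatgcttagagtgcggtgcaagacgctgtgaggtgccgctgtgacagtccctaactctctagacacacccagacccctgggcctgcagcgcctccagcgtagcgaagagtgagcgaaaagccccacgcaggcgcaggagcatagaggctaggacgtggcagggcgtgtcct

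In the Anxa1 sequence the TATA box begins 32 bases before the start, and the GC content is 46%. The Anxa2 sequence has a TATA box 17 bases before the start, an AP-1 match at 95 bases and GC boxes at 190, 48 and 24 bases, none overlapping another, with a GC content of 62.4%. In the Anxa5 sequence the GC content is 58.8%. Among the 32851 promoter windows of this length in the table, 12.4% held the TATA letters, 6.75% the AP-1 letters, 32.7% the GC box and 33.8% the CCAAT box. A match to these letters is a description of the sequence and does not show that a factor binds there.

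The arrays carried 2 features that bear on what follows. Aprt itself was dim, and its brightest probe set averaged 66.9 ± 34.1 in 7-day KO-labelled arrays and 115.5 ± 44.3 in 7-day controls (SD, n = 6 each), with 65.5 ± 18.4 and 107.1 ± 2.9 at 1 month (SD, n = 3 each). In 4 arrays, 2 labelled KO and 2 labelled control, Aprt lay on the opposite genotype's side of the midpoint between the 2 group medians at that age, so the mice are called KO-labelled throughout. The 2 arrays of litter pair 4, at 7 days, had highest signals of 10167 and 10767, against 25718 to 51453 in the other 16. Median signals ran from 160.1 to 216.4 and the trimmed means lay between 500.2 and 500.4 on every array.

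Among the annexins, 8 probe sets of 7 genes passed the filter on dim probe sets, a mean signal of 118.6 over all arrays, and were tested. The other 4 are described last. At 7 days, Anxa1 and Anxa3 rose in KO-labelled kidneys, each by about 1.5 times, and in all 6 litter pairs, which held for 7.26% of all tested probe sets. The other tested annexins did not pass the test at that age. A linear model (limma) was fitted to log2(signal + 29) over all 7464 probe sets that passed, with p-values adjusted over all of them, and a call is an adjusted p under 0.05. Called higher at 7 days were 2 of the 8 tested probe sets, against a background of 2.25% of all tested, and none was called lower. All 8 had a positive log2 fold change, as did 45.6% of all tested probe sets, and their median was 0.26, against -0.015 over all tested.

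**Figure D1:**
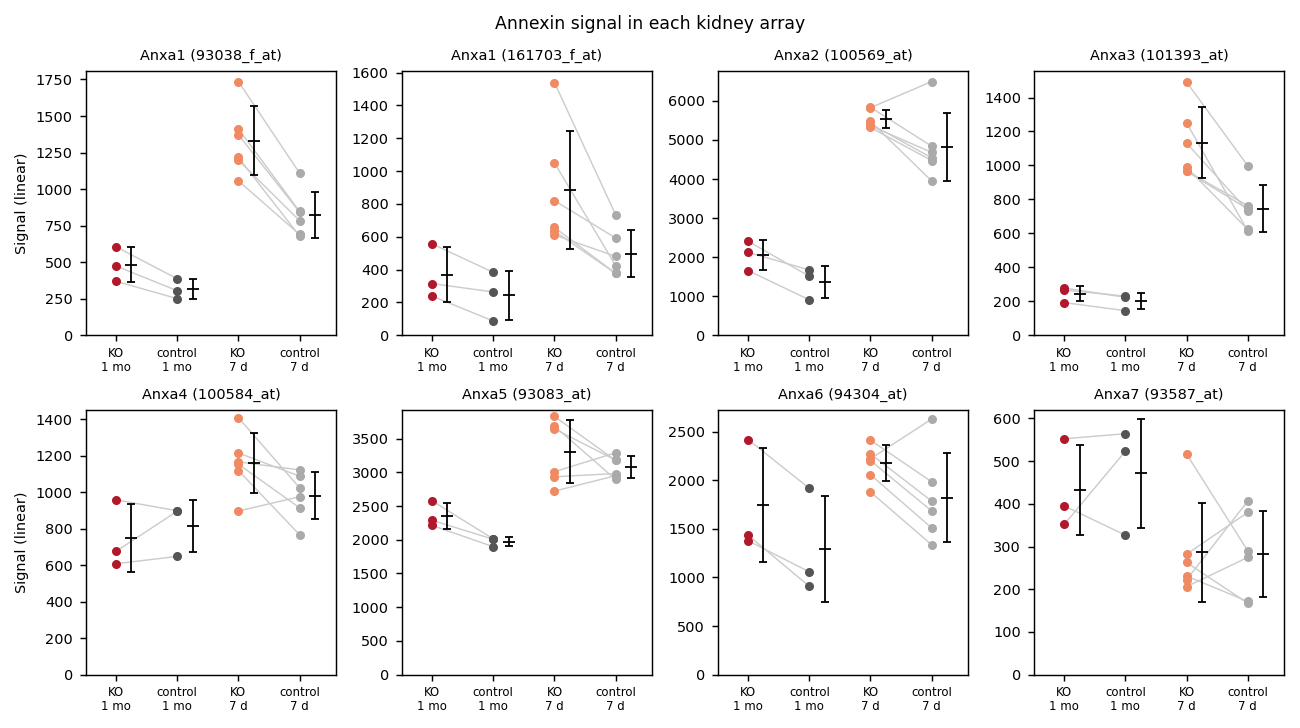
Signal (linear scale, from 0) of the 8 annexin probe sets that passed the filter, by group, with KO standing for arrays labelled Aprt KO. Points are arrays, grey lines join littermates, and the black marks are the mean and SD of 3 arrays at 1 month and 6 at 7 days. Points for Anxa2, Anxa3 and the brighter Anxa1 probe set lie lower at 1 month than at 7 days. Those of the dimmer Anxa1 probe set overlap between the ages in controls.

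Anxa1 was read by 3 probe sets. In the brightest, 93038_f_at, the 6 KO-labelled arrays at 7 days ran from 1056 to 1736 with a median of 1294, against 679 to 1110 with a median of 814 in the 6 controls. Only the highest control lay within the KO-labelled range, and it was the littermate of the highest KO-labelled mouse. The mean was 1332 ± 236 in KO-labelled arrays and 825.4 ± 156.9 in controls (SD, n = 6 each). This is a log2 fold change of 0.67 (SE 0.14), or 1.59-fold on the log2(signal + 29) scale, which understates changes of dim probe sets, with a limma adjusted p of 0.00899.

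The second Anxa1 probe set, 161703_f_at, had signals of 610.8 to 1539 with a median of 738.1 in the 7-day KO-labelled arrays, against 376.5 to 734 with a median of 452.2 in controls. The groups overlapped, and again the highest array of each group came from litter pair 3. The log2 fold change was 0.76 (SE 0.28), which did not pass (limma adjusted p of 0.273). Blocking on litter pair, it passed at a limma adjusted p of 0.0037, where 4.35% of all tested probe sets were called higher. The third, 93037_i_at, was under the filter and read 99.96 to 252.5 in KO-labelled arrays and 59.4 to 165.3 in controls. In Affymetrix names the suffix f marks probes shared with related transcripts and i an incomplete probe set, so signal from related transcripts cannot be told apart here, and the 3 are not independent readings.

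Anxa3, whose protein is abundant in neutrophils and has been linked to vessel growth, was called as well. Its signal at 7 days ran from 966 to 1491 with a median of 1060 in KO-labelled arrays, against 614.8 to 998.9 with a median of 738.6 in controls. The ranges overlapped in the highest control, of pair 3, and the 3 lowest KO-labelled arrays. The log2 fold change of 0.58 (SE 0.13) passed with a limma adjusted p of 0.0133. When the 4 arrays whose Aprt went against the label were left out, the log2 fold change was 0.64 for Anxa1 (93038_f_at) and 0.57 for Anxa3, and neither passed, with limma adjusted p-values of 0.135 and 0.141. Both passed without litter pair 4, a removal chosen after seeing the data, at 0.69 (limma adjusted p of 0.0265) and 0.63 (0.0248).

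Anxa6, the largest annexin, which has been tied to membrane traffic and cholesterol handling, missed the call at 7 days. Its signals were 1881 to 2415 with a median of 2213 in KO-labelled arrays and 1337 to 2632 with a median of 1736 in controls. The single highest array was a control, from pair 5, whose KO-labelled littermate read 2223. In the other 5 pairs the KO-labelled mouse was higher. The log2 fold change was 0.28 (SE 0.10, limma adjusted p of 0.262). Without that control array it passed (0.37, limma adjusted p of 0.0419). A random litter-pair block also called it, at 0.0385, where 4.73% of all tested probe sets were called higher, while the fixed block gave 0.077.

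Anxa2 had signals of 5319 to 5834 with a median of 5441 in the 7-day KO-labelled arrays, against 3951 to 6496 with a median of 4613 in controls. The KO-labelled arrays were closely grouped, with an SD of 232.1 against 869.3 in controls, and the highest control belonged to pair 4, one of the arrays with a low top signal. Its log2 fold change was 0.21 (95% confidence interval -0.07 to 0.50, limma adjusted p of 0.791), and 0.29 without pair 4 (0.55). Anxa4, an annexin of polarised epithelia, ran from 897.5 to 1410 in KO-labelled arrays and from 767.5 to 1123 in controls, with a log2 fold change of 0.23 (95% confidence interval -0.004 to 0.47, limma adjusted p of 0.539).

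Anxa5 ran from 2722 to 3830 in KO-labelled arrays and from 2895 to 3291 in controls at 7 days. Only 3 of 6 pairs were higher in the KO-labelled mouse, and the log2 fold change was 0.09 (95% confidence interval -0.11 to 0.29, limma adjusted p of 0.98). Anxa7, which has been studied in membrane fusion and secretion, read 206 to 516.8 in KO-labelled arrays and 167.4 to 406.3 in controls. Its difference of 0.03 (95% confidence interval -0.47 to 0.53, limma adjusted p of 0.999) did not pass, and 3 of 6 pairs were higher in the KO-labelled mouse.

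Markers of other cell types moved with genotype at 7 days. All 10 tested macrophage markers of the 13 listed were called higher, where 2.25% of all tested probe sets were. The summed signal of the 13 was 8235 to 12038 in 7-day KO-labelled arrays, against 3614 to 6344 in controls. The highest control sum came from pair 3, whose control also had the highest Anxa1 and Anxa3 of its group. Its KO-labelled littermate, the highest in Anxa1 and Anxa3, had the lowest macrophage sum of the KO-labelled arrays. No marker of this list was at 0, but Adgre1, Ptprc and Fcer1g were under the filter. Of the injured tubule markers, 6 of 8 tested were called higher, with summed signals of 25257 to 28008 against 11401 to 17426. For neutrophils 1 of 3 tested was called higher, with sums of 847.6 to 1260 in KO-labelled arrays and 645.4 to 854.6 in controls. Their part in the annexin differences was not tested.

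At 1 month no annexin passed the test without the pairing (0 of 8 by limma, 3 at an unadjusted p under 0.05), and over all probe sets 0.201% were called, with 4.39% at an unadjusted p under 0.05. Point estimates were positive for 6 of the 8, as for 49.5% of all tested, with a median log2 fold change of 0.36, against -0.002 over all tested. With the litter pair as a block, 2 annexins passed, Anxa1 (93038_f_at) and Anxa2, where 1.11% of all tested probe sets were called higher (1.57% with a random block, which called the same 2).

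Anxa1 (93038_f_at) read 473.6, 368.9 and 604.9 in the 1-month KO-labelled mice of pairs 7, 8 and 9, against 304.7, 250.3 and 386.1 in their control littermates. Each KO-labelled mouse was above its own littermate, while the groups overlapped because pair 8 was low and pair 9 high in both genotypes. The log2 fold change was 0.57 (SE 0.20, 95% confidence interval 0.16 to 0.99), with a limma adjusted p of 0.545, and of 0.00431 with the pair block. For 161703_f_at the signals were 314.6, 238.1 and 556.8 in KO-labelled arrays, against 263.5, 86.8 and 382.6 in controls, and the log2 fold change of 0.65 (SE 0.40) passed neither without nor with the pair block. That value was 0.07 without the control of pair 8 and 1.11 without that of pair 9, and it was 0.27 without the KO-labelled mouse of pair 9.

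Anxa2 read 2121, 1655 and 2407 in KO-labelled kidneys at 1 month, against 1671, 906.5 and 1509 in controls of the same pairs. Every KO-labelled mouse was above its littermate, and the lowest KO-labelled value, of pair 8, lay just under the highest control. The fold was 1.53 (log2 fold change 0.62, SE 0.19), with a limma adjusted p of 0.435, and of 0.0188 with the pair block. Without the control of pair 8, the lowest of all, the log2 fold change was 0.37. Anxa6 read 2420, 1434 and 1378 in KO-labelled arrays, against 1918, 908.9 and 1058 in controls. The female pair 7 was far above both male pairs in both genotypes, each KO-labelled mouse was above its littermate, and the log2 fold change of 0.45 (SE 0.15) passed neither without nor with the pair block (limma adjusted p of 0.497 and 0.119).

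Anxa5 was the one tested annexin whose genotypes did not overlap at 1 month, with 2288, 2212 and 2577 in KO-labelled arrays and 2007, 1897 and 2013 in controls. Such a separation upward was seen in 4.02% of tested probe sets, and its log2 fold change of 0.25 (SE 0.14) did not pass (limma adjusted p of 1). Anxa3 read 192.2, 266.6 and 278.2 in KO-labelled arrays, against 144.8, 230.1 and 223.7 in controls, a log2 fold change of 0.27 (95% confidence interval -0.10 to 0.65). Anxa4 and Anxa7 had log2 fold changes of -0.13 (95% confidence interval -0.46 to 0.20) and -0.10 (95% confidence interval -0.81 to 0.61).

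At 1 month other marker lists were called. None of the 10 tested macrophage markers was called at 1 month by limma (6 at an unadjusted p under 0.05), with summed signals of 4254 to 5799 in KO-labelled arrays and 3300 to 4358 in controls. Over all tested probe sets 0.188% were called higher at this age, and 4.39% had an unadjusted p under 0.05. Of 8 fibroblast markers 6 were called higher, with sums of 8956 to 10500 against 4340 to 5555, and 2 of 8 tested injured tubule markers were called higher. Their part in the 1-month annexin differences was not tested.

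Within litter pairs, the 93038_f_at probe set of Anxa1 had the smallest SD of the difference among the tested annexins. Here the KO-labelled mouse exceeded its littermate by 0.51 to 0.81 on the log2 scale in all 9 pairs, with a mean of 0.64 and an SD of 0.089. The 3 pairs at 1 month lay between 0.51 and 0.61 and the 6 at 7 days between 0.59 and 0.81. Anxa3 ranged from 0.19 to 0.99 and the second Anxa1 probe set from 0.23 to 1.25. These 3 tested probe sets were higher in all 9 pairs, which held for 2.68% of the tested probe sets. Anxa2 and Anxa6 were higher in 8 of 9, the exceptions being pair 4 for Anxa2 (5826 in the KO-labelled mouse, 6496 in its littermate) and pair 5 for Anxa6.

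**Figure D2:**
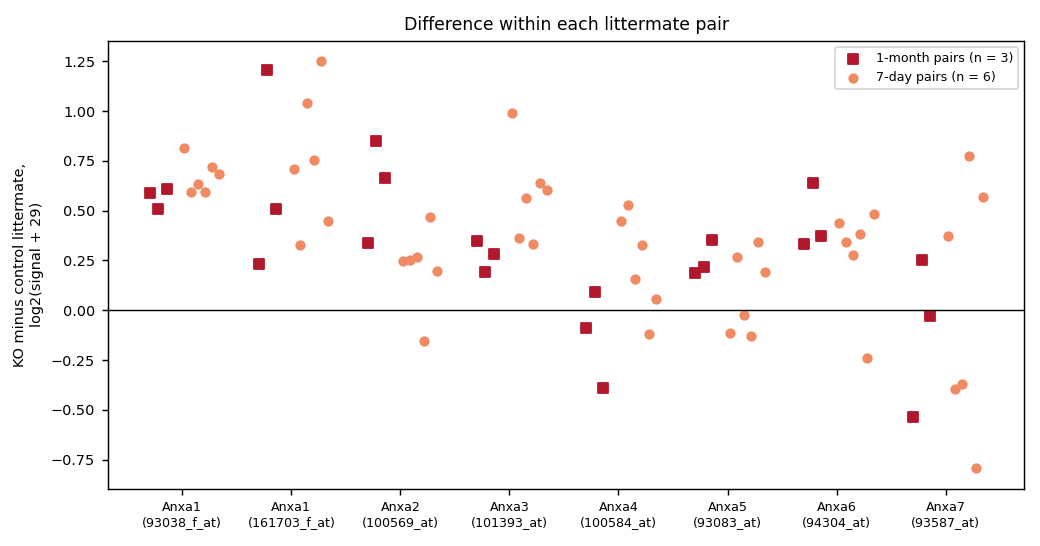
Difference between each KO-labelled mouse and its control littermate in log2(signal + 29), for the 8 tested annexin probe sets; squares are 1-month pairs and circles 7-day pairs. The 9 points of Anxa1 (93038_f_at) lie between 0.51 and 0.81, while those of Anxa7 fall on both sides of 0.

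The genotype effect was compared between the ages directly. No annexin passed the interaction test (0 of 8 by limma, none at an unadjusted p under 0.05). Of all tested probe sets 0.375% were called, and 5% had an unadjusted p under 0.05. With the litter pair as a block 0 of 8 passed as well, where 1.37% of all were called, and 2 had an unadjusted p under 0.05, as did 12.2% of all. The 1-month effect minus the 7-day effect was 0.41 for Anxa2 (95% confidence interval -0.09 to 0.90, and 0.11 to 0.70 with the block), -0.36 for Anxa4 (-0.77 to 0.05, and -0.70 to -0.02 with the block), -0.31 for Anxa3 (-0.77 to 0.15) and -0.10 for Anxa1, 93038_f_at (-0.61 to 0.41). The Anxa2 value was 0.16 without the 1-month control of pair 8 and 0.21 without the 1-month KO-labelled mouse of pair 9, and that of Anxa4 was -0.22 without that KO-labelled mouse. With 3 mice a group at 1 month these intervals are wide, and they do not show that the effects at both ages were alike.

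The largest annexin differences lay between the ages. Sample names begin differently at each age, and no label says whether the ages were processed together. An age difference therefore cannot be told apart from a difference between such sets of arrays. In KO-labelled kidneys 6 of the 8 tested probe sets fell at 1 month against 7 days, where 23.8% of all tested probe sets were called lower. In controls 6 of 8 fell, where 24.6% were called lower, and 5 probe sets fell at both genotypes, those of Anxa1, Anxa2, Anxa3 and Anxa5. The ages did not overlap for 5 of the 8 in KO-labelled arrays and 4 in controls, where 21% and 19.8% of all tested probe sets lay fully lower at 1 month. The arrays have a trimmed mean in common but not a median, and the median log2 fold change of all tested probe sets with age was -0.12 in KO-labelled arrays and -0.11 in controls. Centring each array on its median moved both to 0.11. The share of higher among called probe sets was then 63.1% in KO-labelled arrays and 60.9% in controls, against 37.1% and 35.8% as deposited, so values after centring are given beside the deposited ones. After centring, 4 of the 8 annexin probe sets were called lower and 1 higher in KO-labelled arrays, where 13.5% of all tested were called lower and 23.2% higher. In controls 4 were called lower and 1 higher as well, where 14.6% and 22.8% were.

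Anxa3, Anxa2 and Anxa1 had the largest falls. In KO-labelled arrays the mean of Anxa3 was 245.7 ± 46.6 at 1 month (SD, n = 3) and 1133 ± 209 at 7 days (SD, n = 6). This is a log2 fold change of -2.16 (SE 0.16, limma adjusted p of 1.01e-08), or -1.93 after centring. In controls the mean of Anxa3 was 199.5 ± 47.5 at 1 month and 746.3 ± 139 at 7 days, a log2 fold change of -1.85 (SE 0.16, limma adjusted p of 5.7e-08), or -1.63 after centring. The ages did not overlap at either genotype.

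Anxa2 averaged 2061 ± 379 at 1 month and 5538 ± 232 at 7 days in KO-labelled arrays (SD, n = 3 and 6), a log2 fold change of -1.38, or -1.15 after centring. In controls the means were 1362 ± 403 at 1 month and 4831 ± 869 at 7 days, a log2 fold change of -1.78, or -1.56 after centring. Anxa1 (93038_f_at) averaged 482.5 ± 118.2 at 1 month and 1332 ± 236 at 7 days in KO-labelled arrays, a log2 fold change of -1.42, or -1.19 after centring. The control means of Anxa1 were 313.7 ± 68.3 at 1 month and 825.4 ± 156.9 at 7 days, a log2 fold change of -1.32, or -1.10 after centring. Each of these 4 falls had an SE of 0.17, separated the ages without overlap and passed with limma on both scales, and the highest limma adjusted p as deposited was 1.03e-05.

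The other annexins changed less with age. Anxa5 was lower in KO-labelled arrays and in controls, with log2 fold changes of -0.47 and -0.64 and with no overlap of the ages. After centring these were -0.24 in KO-labelled arrays (limma adjusted p of 0.177) and -0.41 in controls (0.0219). The KO-labelled call was also lost without the 1-month mouse of pair 7, the only female of its group (-0.43, limma adjusted p of 0.0951). It was lost as well without the 4 arrays whose Aprt went against the label (-0.46, limma adjusted p of 0.125). Anxa4 was called lower in KO-labelled arrays, at -0.70 (limma adjusted p of 0.000688), or -0.47 after centring (0.0129). Its difference of -0.34 in controls did not pass (0.068) and was -0.12 after centring. The control value passed without the 7-day control of pair 2 (-0.39, limma adjusted p of 0.0375) and without the 1-month KO-labelled mouse of pair 9 (-0.35, 0.0434), and the interaction of Anxa4 did not pass.

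Anxa6 was not called in KO-labelled arrays (-0.21, limma adjusted p of 0.213) and was called lower in controls (-0.38, limma adjusted p of 0.0271). After centring these were 0.02 and -0.16, and neither passed. The difference between the genotypes is the interaction, which did not pass. The control call also went without the control of pair 7 (limma adjusted p of 0.0982), without that of pair 8 (0.11) and with the pair as a random block (0.0642). It went as well without the sex term (-0.53, limma adjusted p of 0.0695). Anxa7 was the one tested annexin with a positive age difference, at 0.58 in KO-labelled arrays (limma adjusted p of 0.138) and 0.71 in controls (0.0689). After centring both passed, at 0.81 (limma adjusted p of 0.0359) and 0.93 (0.0172), and without litter pair 4 both passed as well, at 0.79 (0.0184) and 0.78 (0.0208). Leaving out 1 array also brought limma calls for Anxa7: in KO-labelled arrays without the 7-day KO-labelled mouse of pair 4 (0.0193), and in controls without that mouse (0.0261), the 7-day control of pair 5 (0.0424) or the 1-month control of pair 8 (0.0319). The second Anxa1 probe set was called lower as well, at -1.18 in KO-labelled arrays and -1.07 in controls, calls that centring ended (limma adjusted p of 0.0513 and 0.0779). In KO-labelled arrays the call was also lost without the 4 arrays whose Aprt went against the label (0.292) and without the 1-month mouse of pair 7 (0.234) or 8 (0.0775). In controls it was lost with quantile normalization (0.0749), without the 4 arrays (0.0673), without the 1-month control of pair 7 (0.0727) and without that of pair 8, where the value was -0.56 (limma adjusted p of 0.188).

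**Figure D3:**
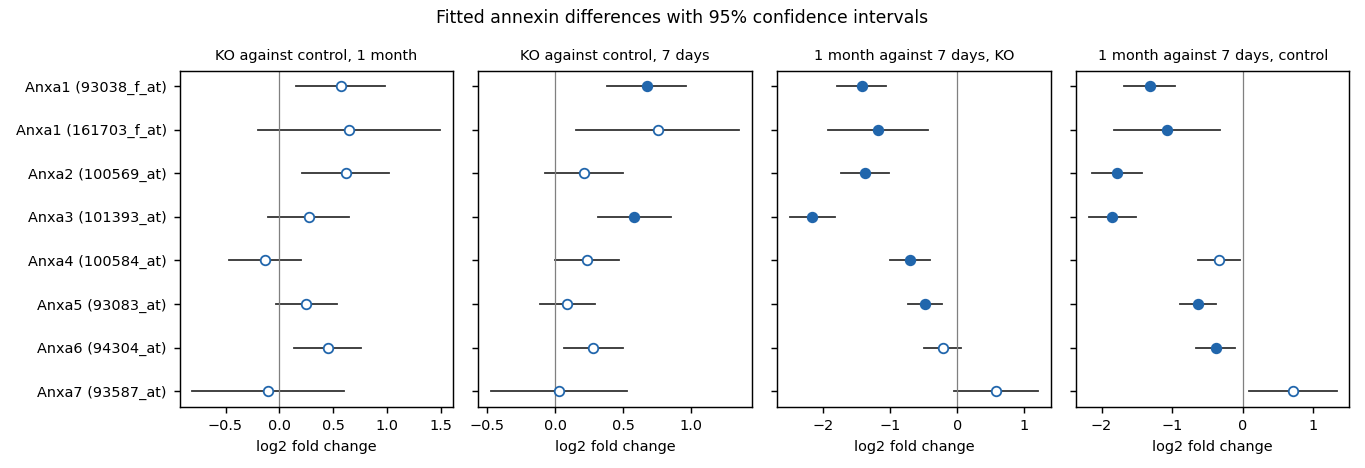
Fitted log2 fold changes with 95% confidence intervals for the 8 tested annexin probe sets in 4 comparisons; filled circles passed the limma test at an adjusted p under 0.05 and open circles did not. Genotype panels hold 2 filled circles, Anxa1 and Anxa3 at 7 days, and each age panel holds 6, all below 0.

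By group means, Anxa1 (93038_f_at), Anxa2, Anxa3, Anxa5 and Anxa6 had the same order from high to low: 7-day KO-labelled, 7-day control, 1-month KO-labelled, 1-month control. The neighbours at 7 days overlapped for each of these genes. Between 7-day controls and 1-month KO-labelled arrays Anxa1 (93038_f_at), Anxa2, Anxa3 and Anxa5 did not overlap, while Anxa6 and Anxa1 161703_f_at did. The share of all tested probe sets separated between these groups was not computed, so this only describes the signals. Anxa7 (93587_at) ran the other way between the ages, with means of 433.2 ± 105.6 in KO-labelled arrays and 471.4 ± 127.1 in controls at 1 month (SD, n = 3 each), and of 286.7 ± 116.1 and 281.6 ± 100.5 at 7 days (SD, n = 6 each), and all neighbours overlapped.

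The 4 probe sets under the filter had low mean signals over all arrays, though single arrays of 93037_i_at were above 118.6. Anxa1 93037_i_at averaged 77.8 and 49.9 at 1 month in KO-labelled arrays and controls, and 155.9 and 98.8 at 7 days. Fitted without a filter over 12422 probe sets, its log2 fold change at 7 days was 0.53 (SE 0.22, limma adjusted p of 0.489), and it was the one dim annexin called with age, at -0.83 in KO-labelled arrays (limma adjusted p of 0.0379, where 15.4% of probe sets were called lower). Its KO-labelled mouse was higher in 9 of 9 pairs. The second Anxa7 probe set, 161533_at, read between 15.8 and 92.1 over the 18 arrays, and did not pass in any comparison.

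Anxa8, known from stratified epithelia, read 6.5 to 73.7, and Anxa10, known from gastric epithelium, read 1.9 to 9.4, and neither passed in any comparison of the fit without a filter. At these signals, under or near the value of 29 added before the log, fold changes are compressed, and a small difference was not detectable.

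Of 27 genes whose products bind annexins, receive them or act with them in plasminogen activation and membrane repair, 19 had a probe set of a single symbol and 16 were tested. Each was read by its brightest probe set only, although S100a10, S100a1, Serpinf2 and Ctsb had more than 1. At 7 days 1 of the 16 was called higher and 0 lower by limma, where 2.25% of all tested probe sets were called higher, and 5 had an unadjusted p under 0.05, as did 9.65% of all. With the pair block 3 were higher and 1 lower, where 4.35% and 3.2% of all were. At 1 month 0 were called by limma (3 at an unadjusted p under 0.05, as were 4.39% of all), and 1 higher with the pair block, where 1.11% of all were. Called at 7 days in both fits was S100a6, a calcium-binding protein that binds several annexins, with means of 7781 ± 719 in KO-labelled arrays and 3458 ± 745 in controls (SD, n = 6 each). Its log2 fold change was 1.19 (SE 0.16, limma adjusted p of 0.000118). At 1 month S100a6 averaged 3402 ± 831 and 1609 ± 411 (SD, n = 3 each), a log2 fold change of 1.07 that missed the threshold (limma adjusted p of 0.0515) and passed with the pair block (0.00382).

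S100a10, the partner of annexin A2, averaged 4333 ± 233 in KO-labelled arrays and 3969 ± 314 in controls at 7 days, a log2 fold change of 0.13 (limma adjusted p of 0.785), and 2771 ± 251 and 2732 ± 379 at 1 month, a log2 fold change of 0.03. Plat and Plau, the plasminogen activators, had log2 fold changes of 0.24 (limma adjusted p of 0.793) and -0.20 at 7 days. Fpr2, a receptor of annexin A1, was under the filter, at 44 ± 12.6 in 7-day KO-labelled arrays and 24 ± 9.7 in 7-day controls. The median log2 fold change of the 16 was 0.09 at 7 days. The calls that the pair block added at 7 days, named after their values were seen, were S100a4 (0.61, limma adjusted p of 0.00914 with the block), Ctsb (0.31, 0.00836) and Serpinf2 (-0.43, 0.0115).

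**Figure D4:**
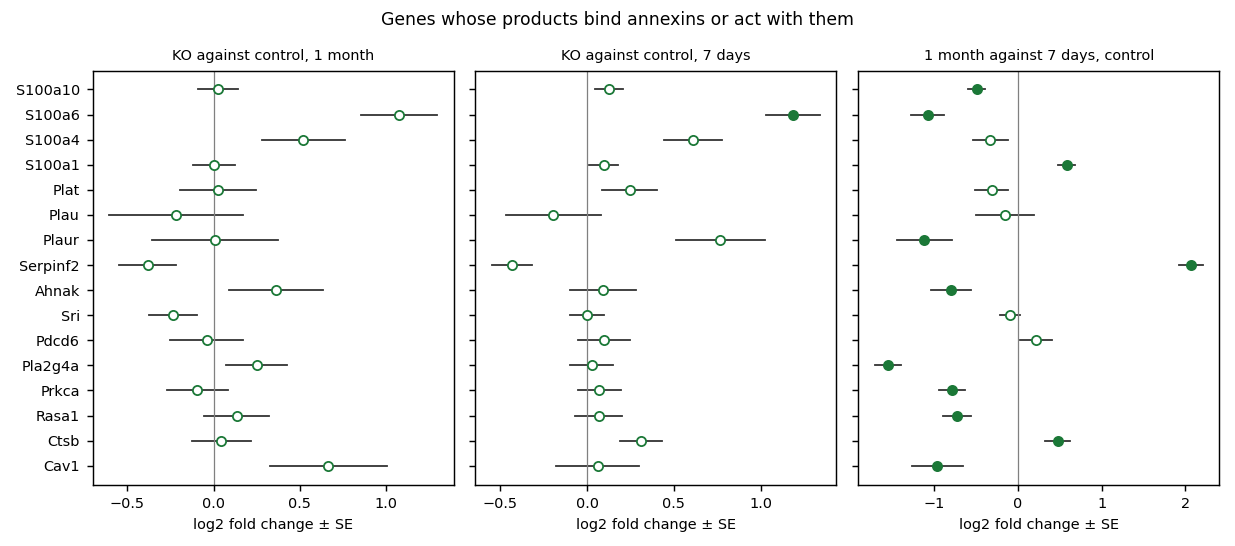
Log2 fold changes (circles) with their SE (bars) of the 16 tested partner genes for KO against control at 1 month and at 7 days and for 1 month against 7 days in controls; filled circles passed the limma test at an adjusted p under 0.05. S100a6 is the single filled circle among the genotype panels, and the age panel has 3 filled circles above 0 and 8 below.

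With age, 2 partner genes were called higher and 8 lower in KO-labelled arrays, and 3 higher and 8 lower in controls, where 14% and 13.7% of all tested probe sets were called higher and 23.8% and 24.6% lower. After centring 3 were called higher and 6 lower in KO-labelled arrays, and 3 higher and 5 lower in controls. Of all tested probe sets 23.2% and 22.8% were then called higher, and 13.5% and 14.6% lower. Serpinf2, which encodes the plasmin inhibitor, averaged 1288 ± 667 at 1 month and 205.4 ± 70.4 at 7 days in KO-labelled arrays, and 1679 ± 839 and 280.1 ± 56.3 in controls, with log2 fold changes of 2.12 and 2.07 (limma adjusted p of 3.83e-09 and 4.86e-09), or 2.35 and 2.29 after centring. Pla2g4a, the cytosolic phospholipase that annexin A1 has been described as restraining, had log2 fold changes of -1.33 in KO-labelled arrays and -1.56 in controls, or -1.10 and -1.34 after centring. Those of S100a6 were -1.19 and -1.08, or -0.96 and -0.86 after centring.

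S100a10 was called lower in both genotypes, at -0.60 in KO-labelled arrays and -0.49 in controls, or -0.37 and -0.27 after centring, where the control call was lost (limma adjusted p of 0.074). Prkca, a calcium-dependent protein kinase, was called lower at -0.96 in KO-labelled arrays (limma adjusted p of 9.62e-05) and -0.79 in controls (0.000585), or -0.73 and -0.57 after centring. Plaur, the urokinase receptor, was called lower at -1.88 in KO-labelled arrays (limma adjusted p of 0.000164) and -1.12 in controls (0.0107), or -1.65 and -0.90 after centring. S100a1, a calcium-binding protein read by a probe set with the f suffix, was called higher at 0.49 in KO-labelled arrays (limma adjusted p of 0.00126) and 0.58 in controls (0.000281), or 0.72 and 0.80 after centring. Plat was called lower in KO-labelled arrays, at -0.54, a call lost after centring (-0.31, limma adjusted p of 0.258), and had a difference of -0.32 in controls that did not pass (0.224).

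Over all 18 arrays, the 5 genes outside the family whose log2 signal correlated most with Anxa1 (93038_f_at), among 6763 probe sets compared, were Ptger4 (Pearson r of 0.97), F2r (0.966), Sparcl1 (0.966), Pros1 (0.958) and Rgs19 (0.955). Ptger4 encodes a prostaglandin E2 receptor, F2r a thrombin receptor, Sparcl1 a matricellular protein, Pros1 protein S and Rgs19 a regulator of G protein signalling. These arrays share the age difference and the 7-day genotype difference of Anxa1, both of which enter the correlation that chose the genes, so the values that follow describe the choice and support nothing. In controls the 5 genes had log2 fold changes of -0.91 to -1.65 at 1 month against 7 days. At 7 days the log2 fold changes in KO-labelled arrays were 1.31 for Ptger4, 0.73 for Pros1, 0.59 for Sparcl1, 0.52 for F2r and 0.42 for Rgs19.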

How the data were processed

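Total RNA from 18 mouse kidneys was labelled with biotin and hybridised to Affymetrix arrays, per the labels. The deposited table holds an intensity (signal) per probe set and array, linear in scale. The submitters' processing notes name GCOS and MAS5 as the authors' software, and its versions were not given in the sources used here. Depth does not apply to arrays, and their number, 3 or 6 in a group, limits the precision.

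They were used without further normalization as log2(signal + 29), 29 being the 20th percentile of all signals, rounded. Of 12488 probe sets 66 were controls, 10833 had 1 gene symbol, 396 several and 1193 none. A probe set was tested where its mean signal reached the 40th percentile, 118.6, which 7464 did. In R 4.3.3, limma 3.58.1 (lmFit and a trended eBayes) fitted 4 group means and 1 sex term per age to all arrays, with 12 residual degrees of freedom. Pair 7 was the only female pair at 1 month, so leaving out 1 of its mice left that group with males only. Tests were two-sided with Benjamini-Hochberg adjustment. Each mouse is a separate animal. Without a litter block, the p-values measure the spread between mice and treat littermates as independent. With the fixed block, they measure the spread of the differences within pairs.

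Littermates pair the samples, per the labels. Deviations from group means correlated at 0.23 to 0.68 in the 9 pairs. The mice of a pair also share sex, and no correlation between mice of different litters is given beside these values. Every annexin probe set is named. Named partners are those called (at most 6 per comparison, by smallest p) and S100a10, S100a6, Fpr2, Plat and Plau. The annexins, partner and marker lists were chosen with earlier results of these data known. Macrophage, neutrophil, fibroblast, injured tubule, kidney tubule and podocyte, urothelium, endothelium, adrenal and fat markers were counted, by the brightest probe set. The linear model fit without a litter block was tested on simulated data for the genotype difference at the younger age. The simulated noise was independent between arrays, so the simulation could not check that fit under a correlation within pairs.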

Additional observations from a re-analysis of the deposited data

Results flagged for a closer look

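Anxa7 (93587_at) in the 7-day KO-labelled mouse of litter pair 4 stood apart from its group, with a signal of 516.8, where the next highest of the 6 arrays was at 281.8. On the log2 scale used for the limma fits, the gap was 0.668 of the group's range, above the 95% critical value of Dixon's test for 6 samples. It was the 1 such value among 16 groups examined, and chance gives about 1 in 20. This array is one of the 2 with low top signals.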

How the results depend on the processing

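Over 13 named alternatives and the 18 that each leave out 1 array, the annexin log2 fold changes kept direction and side of the threshold 1154 times, lost a call 19 times, gained one 21 times and changed sign 25 times. The calls of Anxa1 (93038_f_at) and Anxa3 at 7 days held under all of them but the removal of the 4 arrays whose Aprt went against the label, and the falls of Anxa1 (93038_f_at), Anxa2 and Anxa3 with age held under all that give an age value, which the fixed litter block does not. The cause of the losses was not tested.

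With the litter pair as a replicate block, a pairing that the labels give, the annexin count at 7 days was 3 (fixed) and 4 (random), against 2 without it, and at 1 month 2 and 2, against 0. Without the 4 arrays it was 0 at 7 days. Leaving out single arrays, the counts ranged from 2 to 3 at 7 days, 0 to 0 at 1 month and in the interaction, and 4 to 7 with age at each genotype. Over all probe sets the block called 564 (fixed) and 592 (random) at 7 days, against 204, 91 and 133 at 1 month, against 15, and 102 and 163 in the interaction, against 28. Without the 4 arrays these were 112, 3 and 6, and the age count in KO-labelled arrays was 1426, against 2824. The 1-month count was 31 with a pseudocount of 1, 6 with one at the 40th percentile, 8 without the filter and 8 after median centring. Leaving out single arrays gave 157 to 233 at 7 days, 1 to 22 at 1 month (1 without the control of pair 8), 14 to 38 in the interaction, 1628 to 2873 with age in KO-labelled arrays (1628 without pair 7's) and 1711 to 2901 in controls (1711 without pair 7's).

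The sign changes concerned differences that had not passed. Without the 4 arrays the interaction was 0.16 for Anxa1 161703_f_at and 0.30 for Anxa7, and the Anxa7 genotype difference was 0.11 at 1 month and -0.19 at 7 days. Without litter pair 4, an alternative chosen after seeing the data, the Anxa7 interaction was 0.0193 and its 7-day difference -0.12. After median centring the Anxa6 age difference in KO-labelled arrays was 0.016. Leaving out single arrays, the interaction ran from -0.69 to 0.36 for Anxa1 161703_f_at, from -0.29 to 0.0926 for 93038_f_at and from -0.40 to 0.0862 for Anxa7, the Anxa4 difference at 1 month from -0.26 to 0.015, and the Anxa7 difference from -0.38 to 0.11 at 1 month and from -0.18 to 0.13 at 7 days.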

Other observations

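At 7 days no marker of several other lists was called by limma without the pairing: 0 of 8 tested for kidney tubule and podocyte (2 at an unadjusted p under 0.05), 0 of 8 for fibroblasts (3), 0 of 7 for endothelium (1), 0 of 4 for adrenal (0) and 0 of 3 for fat (0). Over all tested probe sets 9.65% had an unadjusted p under 0.05 at 7 days. With the litter pair as a block, 5 kidney tubule and podocyte markers and 1 endothelial marker were lower and 3 fibroblast markers were higher. With that block 3.2% of all tested probe sets were called lower and 4.35% higher. Adrenal markers varied among mice, with summed signals of 766 to 3947 in 7-day KO-labelled arrays and 620.1 to 4410 in 7-day controls, and of 925.5 to 3923 in 1-month KO-labelled arrays and 646.8 to 1251 in 1-month controls. At 1 month 0 of 4 were called by limma (0 at an unadjusted p under 0.05), with log2 fold changes of 1.81 for Cyp11a1 and 1.82 for Star, and their part in the 1-month annexin differences was not tested. Urothelial markers summed to 690 to 861.1 in 1-month KO-labelled arrays and 401.9 to 530.3 in 1-month controls. Of these markers 0 of 2 tested were called by limma (2 at an unadjusted p under 0.05, as were 4.39% of all tested probe sets). At 7 days the sums were 370 to 483.9 in KO-labelled arrays and 463.4 to 578.3 in controls, with 0 of 2 called (1 at an unadjusted p under 0.05).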
